A study of Oryctolagus cuniculus with 17 samples.

Results

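The 71 genes described here encode transcription factors of the HOX, FOX, SOX, TBX, GATA, GLIS and KLF families. They are the genes of the lung count table whose human name is a family name followed by a paralogue number, among the forkhead genes FOXA to FOXL and FOXN to FOXS, and for a symbol listed more than once the entry of highest total was kept. They made up 71 of 13827 table entries, at 66 loci, and apart from that choice between entries the rule used no measured value. FOXN1, HOXD3, HOXD4 and SOX15 held too few counts for the test, which leaves 67 genes at 62 loci. FOXA1, FOXO1, SOX2, SOX4, SOX7, SOX18, GATA2, GATA6 and KLF2, also known from lung or vessels, had no entry under these human names. Their levels are therefore unknown here.

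Preterm New Zealand White rabbit pups, delivered on day 28 of gestation, lived in hyperoxia (95% O2, groups HT3, HT5 and HT7) or normoxia (21% O2, groups NT3, NT5 and NT7) until postnatal day 3, 5 or 7. All groups therefore shared preterm birth, the incubator and feeding by tube, and no group was born at term. The RNA of 17 samples of right lung homogenate was sequenced, with 3 samples in each group and 2 in HT5. The comparison of HT with NT on each day asks how the lung responds to high oxygen over the first week.

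These families bind DNA through the homeodomain, the forkhead domain, the HMG box, the T-box or zinc fingers, and many of them pattern organs in the embryo and later keep the identity of a cell type. In the developing lung TBX2, TBX4, TBX5, FOXF1 and the anterior HOX genes are known from the mesenchyme, where they direct growth and branching of the airway tree, and FOXF1 and SOX17 also act in endothelium. FOXA2, FOXP1, FOXP2, SOX9 and KLF5 are known from the lung epithelium, and FOXJ1 drives the formation of motile cilia.

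The samples held between 13123731 and 18111086 counts with each locus counted once, and the 71 genes took 0.332% to 0.54% of a sample's counts. The alveolar type 2 markers SFTPC and SFTPB were among the lung markers present in all 17 samples. HT3 replicate 2 and HT5 replicate 1 stood apart by skeletal muscle markers, whose summed level was 396 and 357 CPM (counts scaled to the sample's total with TMM factors) against 57.4 to 113 CPM in the other 15 samples. HT7 replicate 1 had the highest summed level of 6 neutrophil markers, 3520 CPM against 1130 and 1620 CPM in the other HT7 samples. Nothing in the labels says whether the samples of a group come from different litters, so p-values measure the spread between these samples.

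Most of the genes that responded to hyperoxia fell, and more were called on each later day. On day 3, 2 genes passed the edgeR test (adjusted p under 0.05, here "called"), FOXF2 and SOX13, both lower, which is 2.99% against 1.03% of all 13142 genes tested (0.517% lower and 0.517% higher). With the replicate number as a block 0 genes were called, when 0.282% of all genes were, and fits without 1 of the samples gave 1 to 3. With DESeq2 the count was 7, when 4.2% of all genes were called. On day 5, 26 genes were called lower and 4 higher, 44.8% against 31.3% of all genes. Without HT5 replicate 2, 18 genes were called, when 8.65% of all genes were. By day 7, 30 were called lower and 9 higher, 58.2% against 47.4% of all genes. The background was balanced, since 23.7% of all genes were called lower and 23.7% higher on day 7, and 15.4% and 15.9% on day 5. The median log2FC (hyperoxia over normoxia) of the 67 genes was -0.16, -0.42 and -0.54 on days 3, 5 and 7, while that of all genes tested was 0.00, -0.02 and -0.01. RNA-seq of whole lung cannot tell apart fewer cells of a type and less RNA per cell.

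The genes called on days 5 and 7 were largely shared. Of the 30 called on day 5, 28 were called on day 7 in the same direction, 24 lower and 4 higher, which is 93.3% of the day 5 calls and 71.8% of the day 7 calls. For all genes tested the shares were 85.1% and 56.2%. FOXK1 and TBX21 were called on day 5 alone and 11 genes on day 7 alone, while 26 genes were called on no day. Past the thresholds the study set for DEGs (adjusted p under 0.01 and a log2FC beyond 2 in either direction), day 3 had 0 of the 67 genes, day 5 had GLIS1 and HOXD1, and day 7 had FOXF2, GATA3, GLIS1, HOXD1, SOX11 and TBX5, against 0.0533%, 1.58% and 4.59% of all genes on these days.

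Counted without a test, by whether the HT samples of a day lay wholly to one side of the NT samples, the same lean appeared on all 3 days. On day 3, 23 of the 67 genes were lower in all HT3 samples than in any NT3 sample and 5 were higher, while 13.9% and 12.8% of all genes tested were. On day 5, 38 were lower and 11 higher, against 29.2% and 26.5% of all genes. On day 7, 31 were lower and 8 higher, against 27.2% and 27.3% of all genes.

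**Figure D1:**
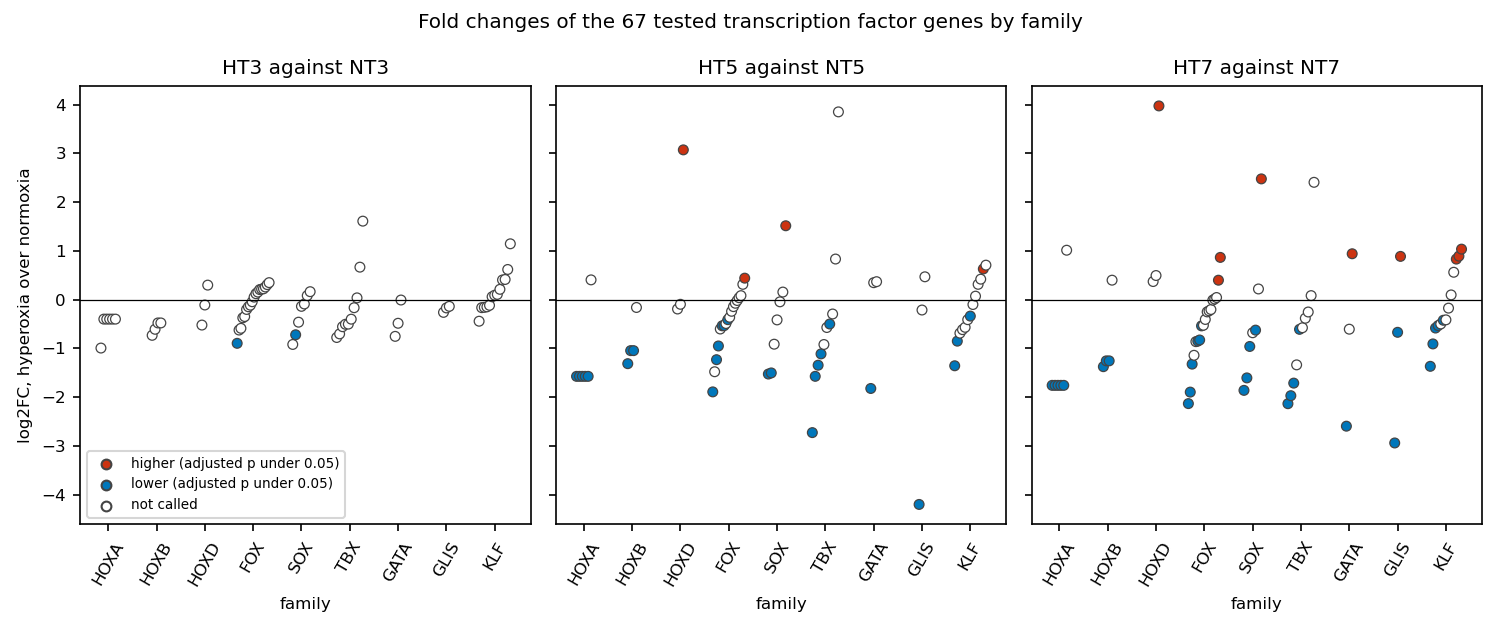
Log2FC of hyperoxia over normoxia (vertical axis) for the 67 tested genes, 1 point per gene, by family (horizontal axis, with HOX split by cluster) on days 3, 5 and 7; blue points were called lower, red points higher and open points not called at an adjusted p under 0.05. On day 7 30 points are blue and 9 are red, and the open TBX point at 3.85 on day 5 is TBX15, with at most 1 count per NT5 sample.

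The share of genes called differed from family to family, but each family is small and the families were not tested against each other. On day 7, when 47.4% of all genes tested were called, 6 of 18 FOX genes were called lower and 2 higher (44.4%), with a median log2FC of -0.47. Among 7 SOX genes 4 were called lower and 1 higher, with a median of -0.68, and among 10 TBX genes 4 were called lower and 0 higher (40%), with a median of -0.59, so the FOX and TBX shares were not above that of all genes. For KLF, 5 of 13 genes were called lower and 3 higher, with a median of -0.42. Each of the 3 GLIS genes was called, 2 lower and 1 higher, and of the 3 GATA genes GATA3 was called lower and GATA4 higher. For HOX, 8 of 13 genes were called lower and 1 higher, but these are 8 loci only, of which 3 were called lower and 1 higher.

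TBX2, TBX4 and TBX5, T-box genes of the lung mesenchyme, were called lower on days 5 and 7. TBX2, which keeps mesenchymal cells proliferating, was measured at 583, 678 and 705 CPM in NT3 and 400, 340 and 407 CPM in HT3, at 515, 649 and 655 CPM in NT5 and 242 and 165 CPM in HT5, and at 398, 517 and 520 CPM in NT7 and 115, 156 and 95.2 CPM in HT7. HT samples were below NT samples on every day. The log2FC was -0.78 ± 0.19 (SE) on day 3 (adjusted p = 0.0618), -1.57 ± 0.22 on day 5 (adjusted p = 0.000267) and -1.97 ± 0.19 on day 7 (adjusted p = 3.91e-06), the last being 3.92-fold lower. Each SE given here was derived from the F statistic of the same test. TBX4, needed for lung bud and airway branching, lies next to TBX2 on chromosome 19, from 27650224 to 27676178 in OryCun2.0, with TBX2 from 27599305 to 27606443. TBX4 was at 252, 279 and 293 CPM in NT7 and 78, 115 and 57.9 CPM in HT7, and at 305, 338 and 314 CPM in NT5 and 171 and 124 CPM in HT5. Its log2FC was -1.11 ± 0.22 on day 5 (adjusted p = 0.00208) and -1.71 ± 0.20 on day 7 (adjusted p = 1.19e-05), with no overlap of HT and NT samples on either day.

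TBX5, the limb, heart and lung field factor, and TBX3, its neighbour on chromosome 21, differed. TBX5 was at 133, 138 and 107 CPM in NT7 and 26.5, 40.7 and 19.1 CPM in HT7, a log2FC of -2.14 ± 0.24 (adjusted p = 1.11e-05) or 4.39-fold lower, and at 125, 144 and 143 CPM in NT5 and 67 and 41.3 CPM in HT5, a log2FC of -1.35 ± 0.27 (adjusted p = 0.00222). Without HT5 replicate 2 the day 5 values of TBX4 and TBX5 were -0.92 (adjusted p = 0.0535) and -1.05 (adjusted p = 0.0584). TBX3 was at 64.9, 87.6 and 86.8 CPM in NT7 and 93.4, 33.8 and 33.3 CPM in HT7, so that HT7 replicate 1 lay above all NT7 samples and the others below. It was not called, with a log2FC of -0.58 ± 0.31 (adjusted p = 0.137), and without HT7 replicate 1 it was -1.25 (adjusted p = 0.000225). That library is the one with the highest neutrophil markers, whose part in this value was not tested. A second TBX3 entry on the same chromosome gave a log2FC of -0.93 on day 5 (adjusted p = 0.0421) and -0.70 on day 7 (adjusted p = 0.0575).

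Among the other T-box genes, TBX6 was called lower on days 5 and 7, but its locus also carries MAPK3, GDPD3 and YPEL3, and the 4 genes cannot be separated. Its day 5 call was lost without HT5 replicate 2 and in a fit of only the groups compared, HT5 and NT5. TBX21, a factor of T and natural killer cells, was called lower on day 5 alone, with a log2FC of -2.73 (adjusted p = 0.049) and levels of at most 2.3 CPM. This call was lost without HT5 replicate 2, NT5 replicate 1 or NT5 replicate 2, in the fit of only those groups, with no count filter and with the replicate number as a block. TBX1, TBX15, TBX18 and TBX20 were not called on any day.

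FOXF1 and FOXF2, forkhead genes of the mesenchyme around gut and airways, were both called lower on days 5 and 7, and FOXF2 also on day 3. FOXF1 was at 164, 147 and 153 CPM in NT3 and 99.7, 111 and 97.5 CPM in HT3, at 110, 155 and 158 CPM in NT5 and 58.7 and 61 CPM in HT5, and at 142, 115 and 125 CPM in NT7 and 39, 33.8 and 29.5 CPM in HT7. Its log2FC was -0.59 ± 0.14 on day 3 (adjusted p = 0.056), -1.23 ± 0.16 on day 5 (adjusted p = 0.000173) and -1.90 ± 0.14 on day 7 (adjusted p = 7.56e-07). FOXF1 thus stood below NT in every HT sample, and at 3.73-fold lower on day 7. FOXF2 was at 52.4, 46.8 and 48.4 CPM in NT3 and 29, 22.5 and 27.7 CPM in HT3, and at 39.2, 40 and 44.3 CPM in NT7 and 10.6, 10.5 and 7.17 CPM in HT7. Its day 3 call had a log2FC of -0.90 ± 0.16 (adjusted p = 0.0151), and reached -1.89 ± 0.19 on day 5 (adjusted p = 3.86e-05) and -2.13 ± 0.17 on day 7 (adjusted p = 8.96e-07). With the replicate number as a block, which pairs the samples of day 3, the day 3 value of FOXF2 was -0.90 (adjusted p = 0.074), and its call was also lost without HT3 replicate 2 and without each NT3 replicate, where the adjusted p was up to 0.0869.

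SOX13 and SOX17 were both called lower on days 5 and 7. SOX13, a factor known from vessels and T cells, was at 105, 113 and 112 CPM in NT3 and 67.8, 68.8 and 63.2 CPM in HT3, at 83.9, 115 and 94.9 CPM in NT5 and 35.2 and 33.9 CPM in HT5, and at 98.4, 106 and 85.3 CPM in NT7 and 26, 26 and 27.7 CPM in HT7. Its HT samples lay close together and below all NT samples on each day. The log2FC was -0.72 ± 0.11 on day 3 (adjusted p = 0.0065, with the block 0.0695), -1.50 ± 0.13 on day 5 (adjusted p = 1.46e-05) and -1.86 ± 0.12 on day 7 (adjusted p = 1.66e-07). SOX17, which specifies arterial endothelium and endoderm, was at 9.91, 6.34 and 7.54 CPM in NT7 and 3.06, 2.18 and 2.56 CPM in HT7, a log2FC of -1.61 ± 0.26 (adjusted p = 0.000196). On day 5 its log2FC was -1.53 ± 0.30 (adjusted p = 0.00217), and on day 3 -0.92 ± 0.25 (adjusted p = 0.0952), with HT3 below NT3 in all samples.

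Endothelial markers moved in the same direction as these factors. Of 8 endothelial markers, 6 were called lower and 0 higher on day 7, and 5 lower and 1 higher (VWF) on day 5, when 23.7% and 15.4% of all genes were called lower, and TIE1 alone was called on day 3. Their summed level was 2590 to 3110 CPM in NT7 and 1060 to 1440 CPM in HT7, 2550 to 3100 CPM in NT5 and 1530 to 1650 CPM in HT5, and 3060 to 3410 CPM in NT3 and 2630 to 3090 CPM in HT3. TEK, the angiopoietin receptor, had a log2FC of -2.79 and CDH5, the endothelial cadherin, of -1.96 on day 7, while PECAM1 was at -0.05 (adjusted p = 0.87), and no sample had 0 counts for a marker of this list. Of 8 fibroblast markers 2 were called lower and 2 higher on day 7, with a summed level of 10700 to 14800 CPM in NT7 and 10400 to 13500 CPM in HT7, and of 5 smooth muscle markers 2 were called lower and 1 higher, with 655 to 879 CPM in NT7 and 456 to 692 CPM in HT7. The part of cell composition in the fall of the TBX, FOXF and SOX genes was not tested.

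**Figure D2:**
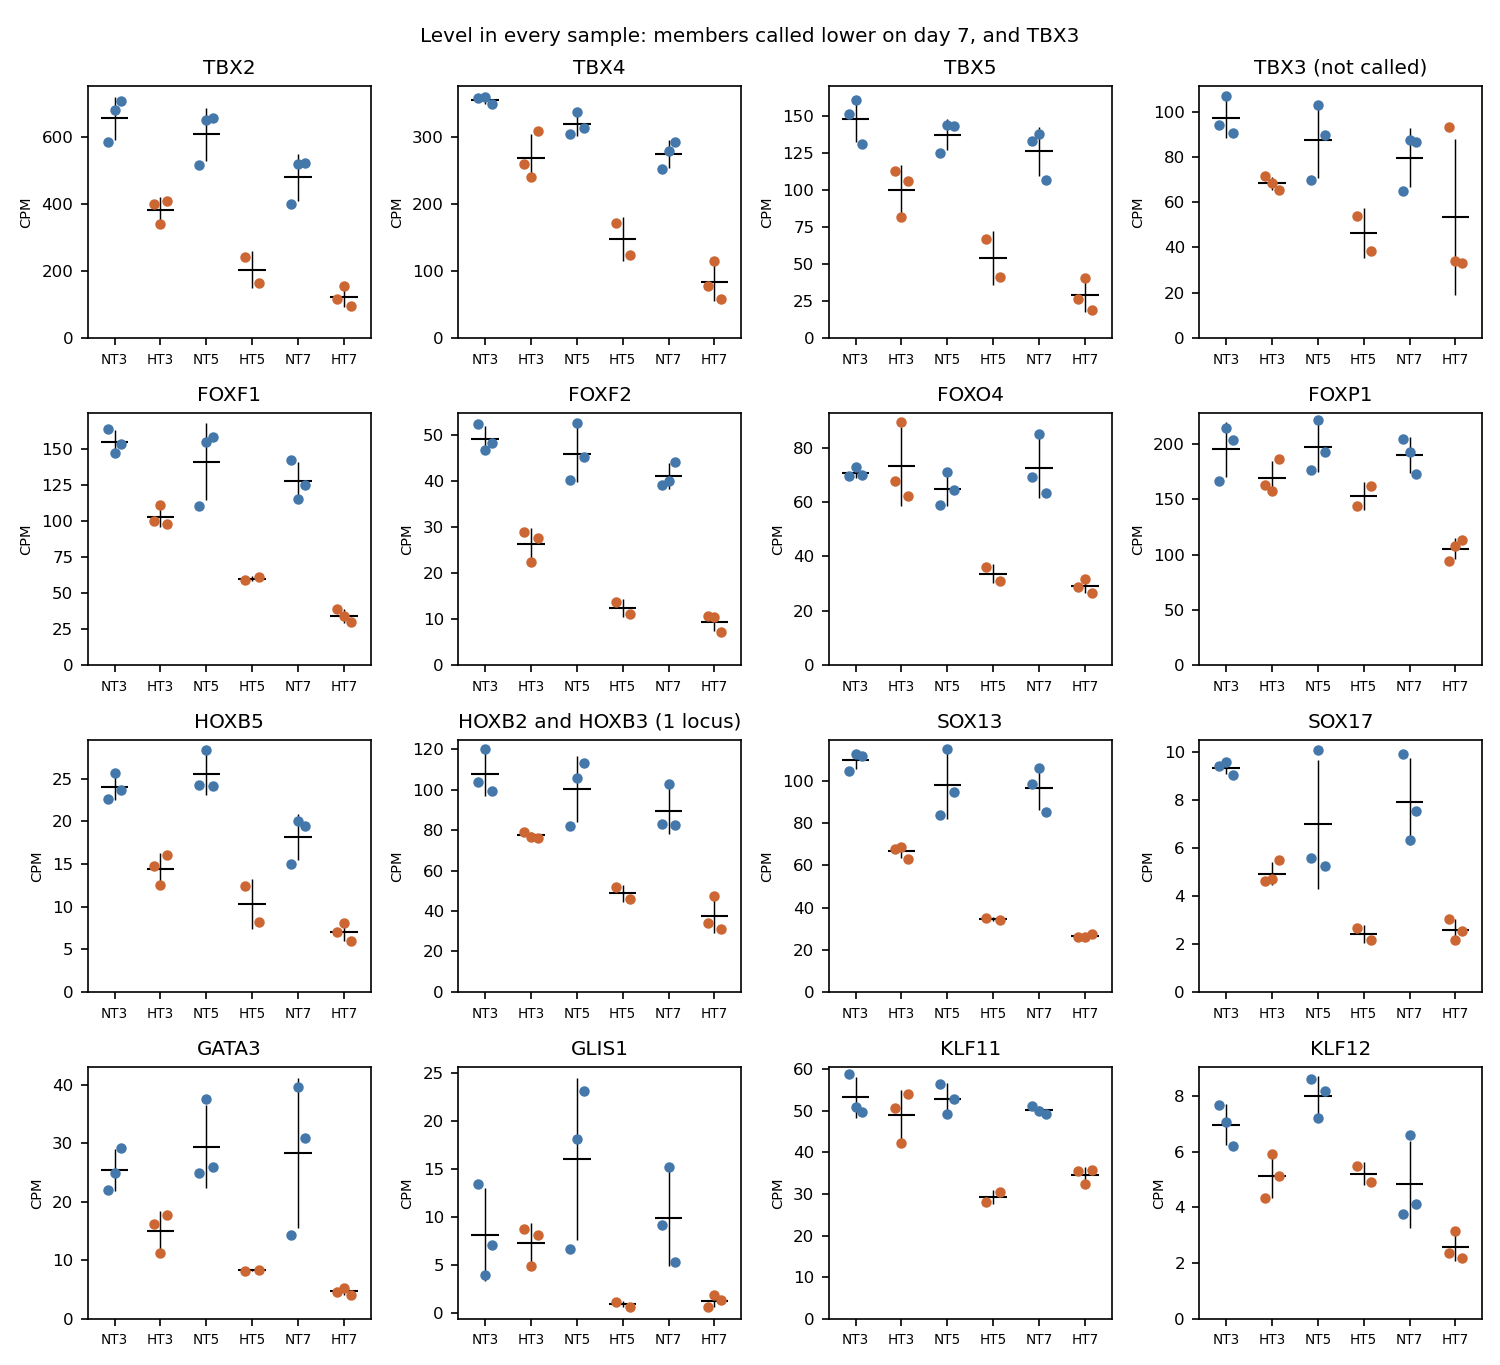
CPM (vertical axis, from 0, with a scale of its own in each panel) of 15 loci called lower on day 7 and of TBX3 in all 17 samples, by group (horizontal axis); blue points are normoxia samples, orange points hyperoxia samples, the horizontal bar is the group mean and the vertical line 1 SD to each side. For TBX2 the HT7 samples lie between 95.2 and 156 CPM and the NT7 samples between 398 and 520 CPM, and in the TBX3 panel HT7 replicate 1 at 93.4 CPM stands above the other HT7 samples.

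HOXA5, the HOX gene whose loss is known to impair the lung and trachea, is read here from the entry at a locus of its own. There the log2FC was -0.35 on day 3 (adjusted p = 0.439), -0.87 on day 5 (adjusted p = 0.0116) and -0.999 on day 7 (adjusted p = 0.00109). HOXB2 and HOXB3 share a locus on chromosome 19 and were called lower on days 5 and 7. They were at 83.2, 103 and 82.4 CPM in NT7 and 34, 47.2 and 31.3 CPM in HT7, a log2FC of -1.26 ± 0.16 (adjusted p = 2.7e-05), and their day 5 log2FC was -1.05 ± 0.18 (adjusted p = 0.000894). HOXB5, a regulator of airway branching, was at 15, 20 and 19.4 CPM in NT7 and 6.98, 8.04 and 5.99 CPM in HT7, a log2FC of -1.38 ± 0.18 (adjusted p = 3.5e-05). On day 3 HOXB5 had a log2FC of -0.73 ± 0.17 (adjusted p = 0.06), with HT3 below NT3 in all samples. A second HOXB5 entry, with only 146 counts over all samples, was not called. Its log2FC was 0.08, -0.58 and 0.42 on days 3, 5 and 7 (adjusted p = 0.961, 0.484 and 0.496). The HOX genes with higher numbers, HOXA7, HOXB6, HOXD8 and HOXD9, had log2FC between 0.37 and 1.01 on day 7 and were not called, at levels of at most 7.04 CPM. HOXB6 lies within the span listed for HOXB5, so reads of the 2 could have been shared.

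HOXD1 moved the other way. It had 3, 4 and 2 counts in NT7 and 75, 46 and 50 counts in HT7, where it reached 4.33, 2.78 and 2.56 CPM. The log2FC of 3.97 ± 0.73 on day 7 (adjusted p = 0.000491) was the largest rise among the 67 genes that day, from a low base. On day 5 the HT5 samples had 13 and 112 counts against 3, 11 and 7 in NT5, and the log2FC of 3.07 ± 0.70 (adjusted p = 0.00471) fell to 1.09 without HT5 replicate 2. The day 5 call of HOXD1 was also lost in the fit of only HT5 and NT5.

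HOX and GATA proteins act with cofactors, the PBX, MEIS and PKNOX homeodomain proteins for HOX and ZFPM, LMO2, LDB1 and TAL1 for GATA. Of 13 such genes tested, 10 were called lower and 0 higher on day 7 and 8 lower and 0 higher on day 5, with medians of -0.95 and -0.60, when 23.7% and 15.4% of all genes were called lower. On day 7 MEIS1 had a log2FC of -1.07 (adjusted p = 0.000152), PKNOX2 of -1.39 (adjusted p = 2.3e-05), LDB1 of -1.17 (adjusted p = 2.63e-06) and LMO2 of -2.07 (adjusted p = 8.38e-05). The value of PBX2, -2.04, belongs to a locus it shares with the alveolar type 1 marker AGER.

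GATA3 and GATA4 were called in opposite directions. GATA3, a factor of T cells and of some epithelia, was at 14.4, 39.7 and 31 CPM in NT7 and 4.67, 5.32 and 4.1 CPM in HT7. All HT7 samples lay below the lowest NT7 sample, and the log2FC was -2.60 ± 0.31 (adjusted p = 1.81e-05), 6.05-fold lower. On day 5 GATA3 had a log2FC of -1.82 ± 0.35 (adjusted p = 0.00168), and on day 3 -0.75 ± 0.29 (adjusted p = 0.225). T cell markers moved with it on day 7, when 5 of 5 tested were called lower, against 23.7% of all genes. The summed level of these and CD3G, which had too few counts for the test, was 16.3 to 24.4 CPM in NT7 and 8.83 to 11.4 CPM in HT7, with 0 counts of CD3G in at least 1 HT7 sample. IL7R made up most of this sum, at 10.7 to 15.1 CPM in NT7 and 6.46 to 9.31 CPM in HT7. On day 5, 0 of these 5 markers were called by edgeR, also 0 at an unadjusted p under 0.05, and the summed level of the 6 was 13 to 30.9 CPM in NT5 and 11.4 to 14.4 CPM in HT5. The part of T cells in the GATA3 value was not tested. FOXP3, the factor of regulatory T cells, stayed at or below 3.21 CPM and was not called on any day.

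GATA4, better known from heart and foregut, was at 1.16, 2.16 and 1.93 CPM in NT7 and 3.81, 2.6 and 3.69 CPM in HT7, with no overlap and a log2FC of 0.94 ± 0.29 (adjusted p = 0.0157). This call was lost without HT7 replicate 1 (0.84, adjusted p = 0.052), without NT7 replicate 1 (0.72, adjusted p = 0.07) and in a fit of only HT7 and NT7. Of 3 heart muscle markers tested, 0 were called on day 7 by edgeR, 0 of them at an unadjusted p under 0.05, and the summed level of the 4 in the table was 4.8 to 6.54 CPM in NT7 and 4.1 to 5.08 CPM in HT7. GATA1, the erythroid factor, was not called on any day and reached at most 1.46 CPM.

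The GLIS genes encode Kruppel-like zinc finger proteins related to GLI, and all 3 were called on day 7. GLIS1 was at 9.09, 15.2 and 5.3 CPM in NT7 and 0.577, 1.87 and 1.38 CPM in HT7, a log2FC of -2.94 ± 0.59 (adjusted p = 0.000949), and at 6.66, 18.1 and 23.1 CPM in NT5 and 1.1 and 0.649 CPM in HT5, a log2FC of -4.20 ± 0.75 (adjusted p = 0.00111). Its NT samples varied widely, between 3.93 and 23.1 CPM over all 3 days, yet every HT5 and HT7 sample lay below them. GLIS2 was at 77.3, 68.7 and 92.5 CPM in NT7 and 45.3, 38.3 and 66.1 CPM in HT7, a log2FC of -0.67 ± 0.18 (adjusted p = 0.00627). GLIS3 rose by 0.89 ± 0.32 on the log2 scale (adjusted p = 0.0343), but 1 HT7 sample at 11.1 CPM lay among the NT7 samples at 11.2, 12.1 and 8.1 CPM, and the call was lost without HT7 replicate 1 (0.63, adjusted p = 0.16), HT7 replicate 3 (0.83), NT7 replicate 1 (0.94) or NT7 replicate 3 (0.73). The GLIS3 call was also lost in the fit of only HT7 and NT7 and with the replicate number as a block.

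Among the forkhead genes of the epithelium and of growth control, the log2FC lay closer to 0 than for FOXF1 and FOXF2. FOXA2, which drives surfactant and airway genes, was at 50.1, 59.5 and 48.3 CPM in NT7 and 32.9, 42.4 and 33.4 CPM in HT7, a log2FC of -0.54 ± 0.13 (adjusted p = 0.00399). On day 5 its log2FC was -0.54 ± 0.15 (adjusted p = 0.0151), and -0.35 without HT5 replicate 2. The day 5 call of FOXA2 was lost in the fit of only HT5 and NT5. FOXP1, which with FOXP2 restrains airway differentiation, was at 205, 193 and 173 CPM in NT7 and 94.5, 108 and 113 CPM in HT7, a log2FC of -0.85 ± 0.12 (adjusted p = 7.97e-05). FOXP1 was not called on day 5 (-0.36, adjusted p = 0.0582), and FOXP2 was not called on any day, with a log2FC of -0.25 (adjusted p = 0.229) on day 7. FOXJ1 showed no call on any day, with 53.2, 34.9 and 41.1 CPM in NT7 and 47.6, 35.8 and 44.8 CPM in HT7 and a log2FC of -0.01 ± 0.18 (adjusted p = 0.966). Of 11 ciliated cell markers, 1 was called lower on day 7, with a summed level of 200 to 239 CPM in NT7 and 126 to 199 CPM in HT7.

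FOXO4 and FOXO3 belong to the FOXO factors, which are held out of the nucleus by insulin signalling and act on cell cycle arrest, stress and atrophy genes. FOXO4 was at 69.1, 85.1 and 63.5 CPM in NT7 and 28.7, 31.7 and 26.6 CPM in HT7, and its log2FC went from 0.05 ± 0.14 on day 3 (adjusted p = 0.905) to -0.95 ± 0.16 on day 5 (adjusted p = 0.000924) and -1.32 ± 0.15 on day 7 (adjusted p = 8.62e-06). The HT5 and HT7 samples lay below all NT samples, while HT3 overlapped with NT3. FOXO3 was not called, with a log2FC of -0.41 (adjusted p = 0.0787) on day 7. Of 12 known FOXO target genes, 5 were called lower and 3 higher on day 7, when 47.4% of all genes were called. The targets called included CDKN1B (p27) at -1.58 (adjusted p = 2.57e-06) and FBXO32 (atrogin-1) at -1.43 (adjusted p = 0.000224), and GADD45A at 3.20 (adjusted p = 5.69e-06), a gene that p53 also induces.

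FOXK2 and FOXJ3 were the forkhead genes called higher. FOXK2, which represses autophagy genes in fed cells, was at 80.3, 81 and 73.3 CPM in NT7 and 153, 115 and 159 CPM in HT7, a log2FC of 0.87 ± 0.13 (adjusted p = 8.26e-05). On day 5 it had a log2FC of 0.44 ± 0.14 (adjusted p = 0.0264), and 0.23 without HT5 replicate 2. This day 5 call was lost without NT5 replicate 1 or NT5 replicate 3 and in the fit of only HT5 and NT5. FOXJ3 rose by 0.40 ± 0.10 on day 7 (adjusted p = 0.00591), with HT above NT in all samples of each day. FOXN3, a cell cycle checkpoint factor, was called lower on days 5 and 7, with log2FC of -0.54 and -0.83 (adjusted p = 0.00817 and 7.69e-05), and its day 5 call was lost without HT5 replicate 2.

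SOX11 was the SOX gene called higher, and it encodes a factor of neural progenitors and of the embryonic lung. It was at 1.23, 0.742 and 1.06 CPM in NT7 and 6.29, 5.14 and 5.53 CPM in HT7, a log2FC of 2.48 ± 0.37 (adjusted p = 0.000107) or 5.56-fold higher. On day 5 the HT5 samples were at 5.57 and 3.08 CPM against 1.27, 1.91 and 1.34 CPM in NT5, a log2FC of 1.51 ± 0.39 (adjusted p = 0.00926), and 1.03 (adjusted p = 0.101) without HT5 replicate 1. HT5 and HT7 samples did not overlap with NT samples of their day, and HT3 did. SOX5 and SOX6, partners in cartilage, were called lower on day 7 alone, with log2FC of -0.96 ± 0.22 (adjusted p = 0.00244) and -0.63 ± 0.19 (adjusted p = 0.015). SOX9, the factor of the distal lung tip, varied from 6.23 to 18.5 CPM in HT7 and was not called (log2FC 0.22 ± 0.42, adjusted p = 0.696).

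SOX10, the factor of Schwann cells, was at 0.342, 0.472 and 0.374 CPM in NT7 and 0.288, 0.242 and 0.205 CPM in HT7 and was not called on any day. Its counts, 4 to 7 per sample on day 7, limit what could be detected. Of 4 Schwann cell and neural crest markers 2 were called lower on day 7, with a summed level of 83.3 to 198 CPM in NT7 and 5.07 to 14.8 CPM in HT7.

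**Figure D3:**
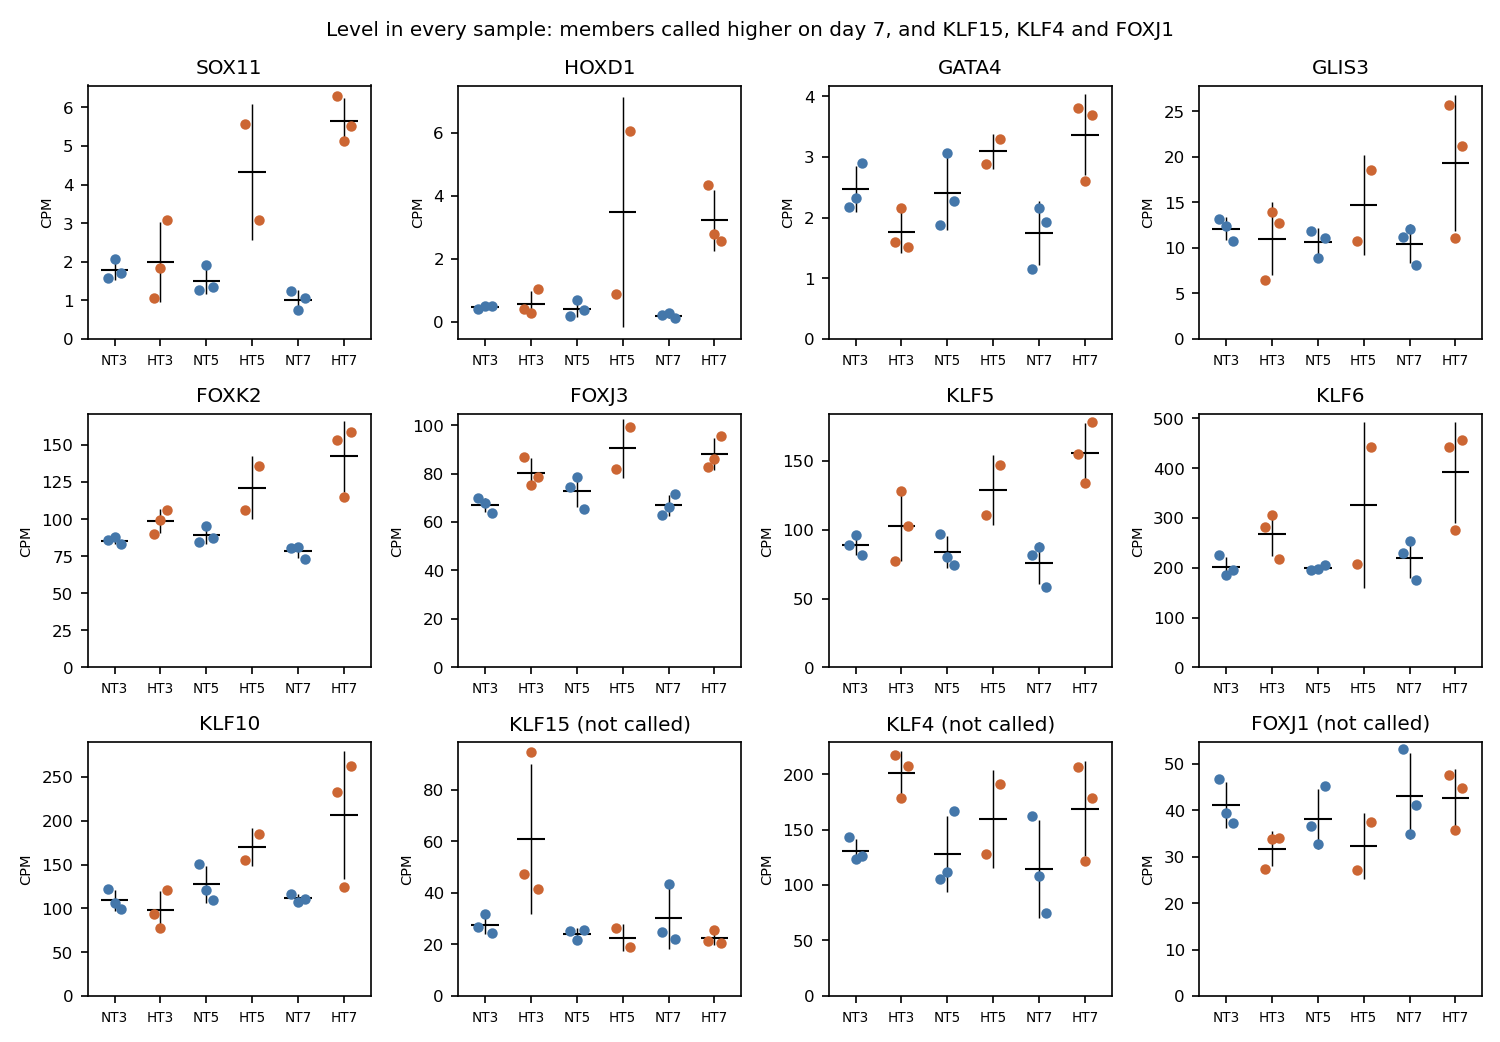
CPM (vertical axis, with a scale of its own in each panel) of the 9 genes called higher on day 7 and of KLF15, KLF4 and FOXJ1, which were not called, in all 17 samples, by group (horizontal axis); blue points are normoxia samples, orange points hyperoxia samples, the horizontal bar is the group mean and the vertical line 1 SD to each side. SOX11 lies between 5.14 and 6.29 CPM in HT7 and between 0.742 and 1.23 CPM in NT7, and in the HOXD1 panel the HT5 samples differ most from each other, at 0.894 and 6.06 CPM.

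The KLF genes, zinc finger factors that bind GC-rich promoters, had 3 of 13 genes called higher on day 7, a share no larger than the 23.7% of all genes called higher. KLF5, a factor of proliferating epithelia, was at 81.5, 87.7 and 58.7 CPM in NT7 and 155, 134 and 178 CPM in HT7, a log2FC of 1.03 ± 0.19 (adjusted p = 0.00052), and on day 5 its log2FC was 0.63 ± 0.21 (adjusted p = 0.0346). Without HT5 replicate 2 the day 5 value was 0.40. The day 5 call was lost without NT5 replicate 2 or NT5 replicate 3 and in the fit of only HT5 and NT5. KLF6 and KLF10, early response genes of injury and of TGF-beta, were called on day 7 alone. KLF6 was at 230, 254 and 175 CPM in NT7 and 442, 275 and 456 CPM in HT7, a log2FC of 0.83 ± 0.24 (adjusted p = 0.0117), and of 0.69 (adjusted p = 0.0558) without NT7 replicate 3. KLF10 was at 116, 107 and 111 CPM in NT7 and 233, 124 and 262 CPM in HT7, a log2FC of 0.89 ± 0.23 (adjusted p = 0.00486). For all 3 genes the HT7 samples lay above the NT7 samples, with HT7 replicate 2 the lowest.

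KLF1, KLF3, KLF8, KLF11 and KLF12 were called lower on day 7. KLF11, a repressor related to KLF10, was at 51.1, 49.9 and 49.3 CPM in NT7 and 35.5, 32.4 and 35.8 CPM in HT7, and its log2FC was -0.85 ± 0.12 on day 5 (adjusted p = 0.000318) and -0.53 ± 0.11 on day 7 (adjusted p = 0.000949). KLF12 had a log2FC of -0.91 ± 0.24 (adjusted p = 0.00588) and KLF3 of -0.58 ± 0.09 (adjusted p = 0.000186) on day 7. KLF8 shares its locus with RRAGB and cannot be separated from it, and its call was lost without HT7 replicate 3, without NT7 replicate 1 and in a fit of only HT7 and NT7. That last fit also lost the call of KLF12 (adjusted p = 0.0564). KLF1, the erythroid factor, was at 7.31, 15 and 4.11 CPM in NT7 and 4.27, 2.78 and 3.18 CPM in HT7, with 1 NT7 sample among the HT7 samples. Its log2FC was -1.37 ± 0.42 (adjusted p = 0.0139), and -0.74 (adjusted p = 0.131) in the fit without NT7 replicate 2. Of 8 erythroid markers 5 were called lower on day 7, with a summed level of 154 to 258 CPM in NT7 and 74 to 94.7 CPM in HT7, and their part in the KLF1 value was not tested.

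KLF15, KLF9 and KLF4 are known targets of glucocorticoids or of vascular stress, and the main edgeR fit called none of them on a day. DESeq2 called KLF15 higher on day 3 (1.15, adjusted p = 0.00674). Among other edgeR fits, KLF4 was called higher on day 7 with the replicate block (0.60, adjusted p = 0.029). KLF9 was called on day 7 without NT7 replicate 3. KLF15 was at 26.6, 31.7 and 24.6 CPM in NT3 and 47.3, 94.5 and 41.4 CPM in HT3, so all HT3 samples lay above all NT3 samples. The log2FC of 1.14 ± 0.29 on day 3 (adjusted p = 0.081) was 0.68 (adjusted p = 0.271) without HT3 replicate 2, the HT3 sample with the high skeletal muscle markers, whose part in this value was not tested. By day 7 KLF15 was at 24.7, 43.6 and 22.1 CPM in NT7 and 21.3, 25.7 and 20.7 CPM in HT7, a log2FC of -0.42 ± 0.29 (adjusted p = 0.259). KLF4 had log2FC of 0.62 (adjusted p = 0.273), 0.31 (adjusted p = 0.435) and 0.56 (adjusted p = 0.0917) on days 3, 5 and 7, and KLF9 of 0.40 (adjusted p = 0.525), -0.69 (adjusted p = 0.114) and -0.50 (adjusted p = 0.159).

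The response differed between days 7 and 3 for 28 of the 67 genes, by a test of the difference of the log2FC. It was lower on day 7 for 22 genes and higher for 6, which is 41.8% against 20.5% of all genes tested (11.0% lower and 9.52% higher). The difference was -1.14 ± 0.16 for SOX13 (adjusted p = 0.000819), -1.37 ± 0.20 for FOXO4 (adjusted p = 0.00118) and -1.31 ± 0.20 for FOXF1 (adjusted p = 0.00127), and among the rises 2.31 ± 0.51 for SOX11 (adjusted p = 0.00755). KLF15 had the reverse course, with a difference of -1.56 ± 0.41 (adjusted p = 0.0174) from the highest day 3 value among these 28 genes, and without NT7 replicate 2 it was -1.19 (adjusted p = 0.0523). Between NT7 and NT3, 0 of 67 genes were called by edgeR and 0 by DESeq2, as for 0% of all genes by edgeR, and 6 genes had an unadjusted p under 0.05, as did 6.27% of all genes. Counted without a test, 14 of the 67 genes were lower in all NT7 samples than in any NT3 sample and 0 were higher, against 8.74% and 8.66% of all genes, so a lean to lower levels was present in normoxia too. FOXF1, FOXF2, TBX2, TBX4, HOXB5, HOXD1 and SOX11 were among the 14. SOX13 had a log2FC of -0.19 between NT7 and NT3, and TBX2 had -0.45 (adjusted p = 0.719).

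**Figure D4:**
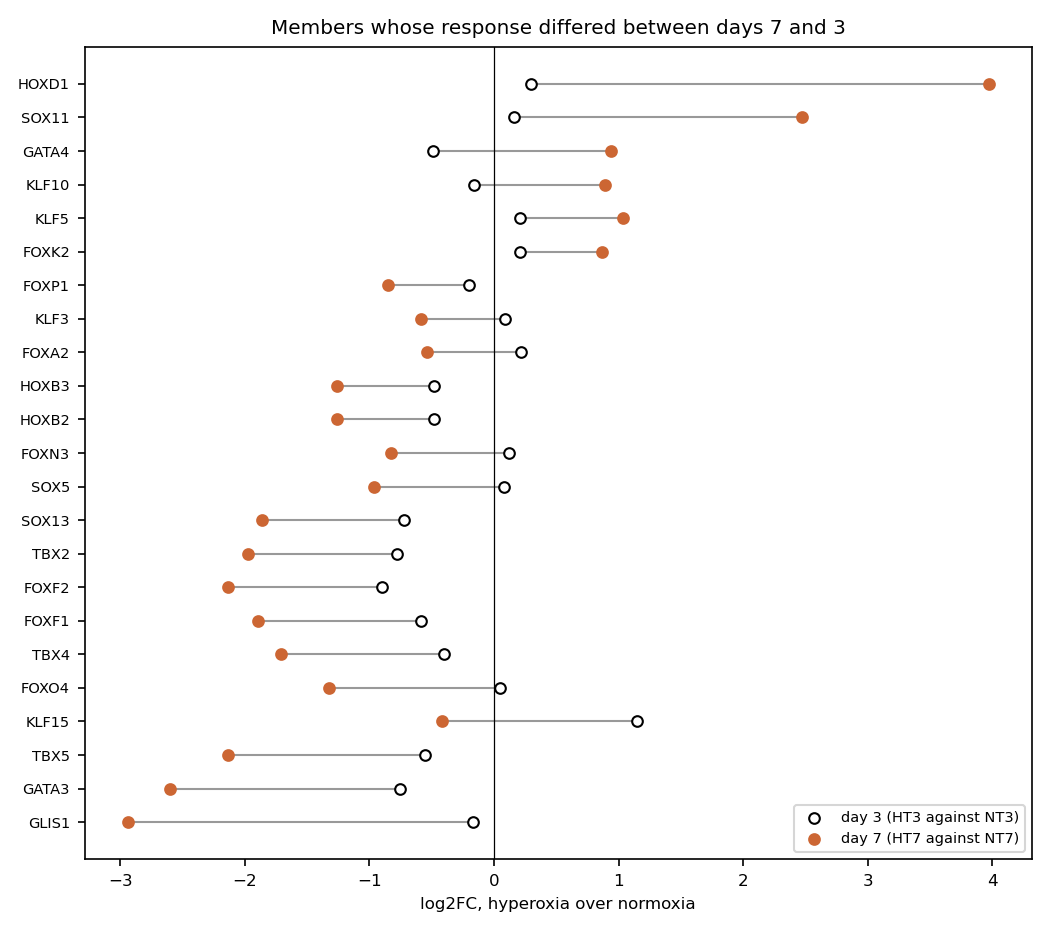
Log2FC of hyperoxia over normoxia (horizontal axis) on day 3 (open circles) and on day 7 (filled circles) for 23 of the 28 genes (vertical axis) whose log2FC differed between the days at an adjusted p under 0.05, ordered by the difference. For 6 genes the filled circle lies to the right of the open one, HOXD1 being the farthest at 3.97, and for 17 genes it lies to the left.

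Other transcription factors of the developing lung were read for comparison. Of 25 tested, 13 were called lower and 3 higher on day 7, with a median of -0.63, which is 64% against 47.4% of all genes. On day 5, 8 were called lower and 1 higher, with a median of -0.38, and the 36% called was near the 31.3% of all genes. Of those tied to mesenchyme and vessels, TCF21 had a log2FC of -1.56 (adjusted p = 0.000133) and ERG of -1.75 (adjusted p = 1.44e-06) on day 7. The 3 called higher were ELF3 and TP63, factors of airway and basal epithelium, at 1.97 (adjusted p = 0.000139) and 1.72 (adjusted p = 0.0159), and ETV4, a target of FGF signalling, at 2.52 (adjusted p = 0.000286).

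**Figure D5:**
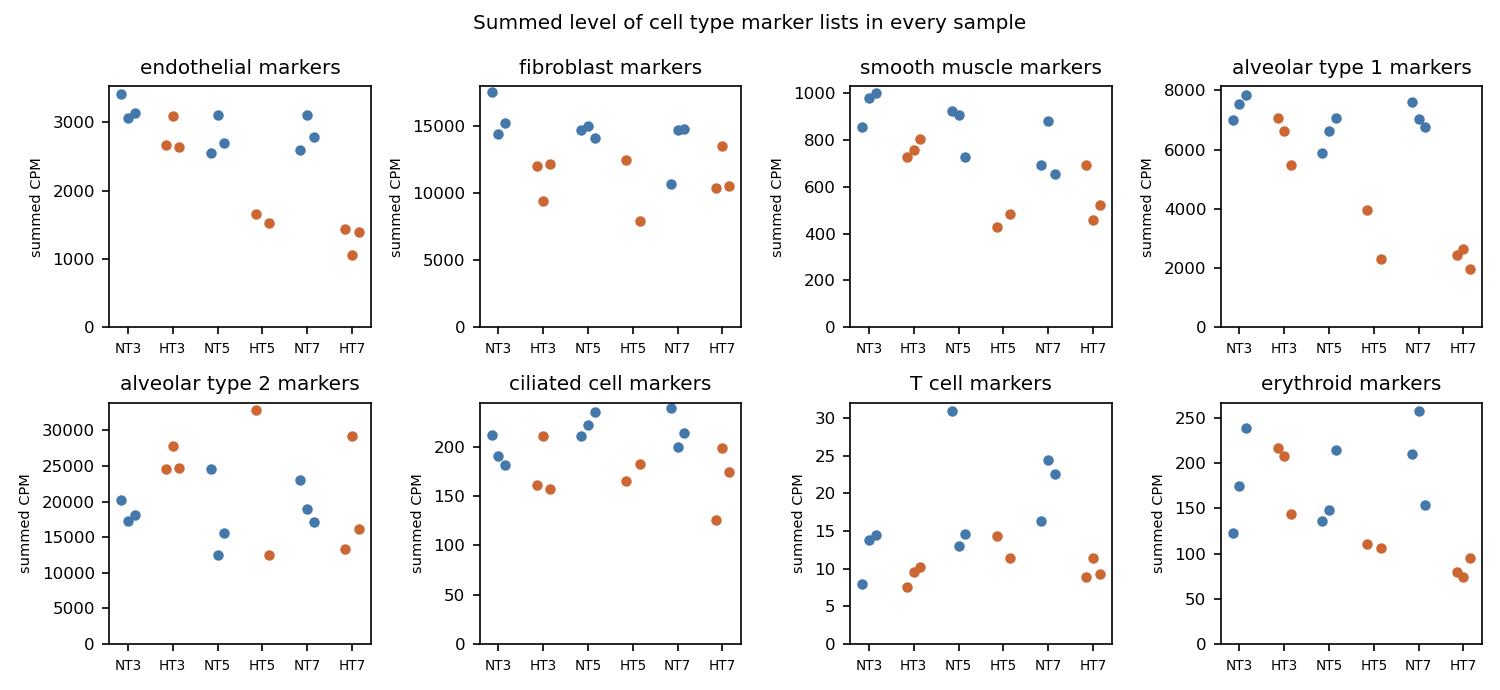
Summed CPM (vertical axis, from 0) of 8 cell type marker lists in all 17 samples, by group (horizontal axis); blue points are normoxia samples and orange points hyperoxia samples. The 8 endothelial markers sum to 1060 to 1440 CPM in HT7 and 2590 to 3110 CPM in NT7, while the fibroblast and alveolar type 2 sums of HT7 overlap with those of NT7.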

How the data were processed

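Total right lung RNA was made into stranded poly(A) libraries, and the authors deposited raw counts per locus for 17 samples, with no normalization. The submitters' processing notes name FastQC, STAR 2.7.10a and the build OryCun2.0; the counting program is not given in the sources used here. Genes of a merged locus carry the same counts. Samples were grouped by their labels.

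The counts were fitted with edgeR 4.0.16 (R 4.3.3; filterByExpr, 13142 tested and 685 not; TMM; quasi-likelihood test with 6 group means over all samples; Benjamini-Hochberg adjustment over all genes tested). Fold changes used a prior count of 0.125. Each SE is the size of the log2FC divided by the square root of the test's F statistic. It therefore holds no information on precision beyond that in the p-value. CPM used TMM-scaled totals of tested entries. Figures used matplotlib 3.10.9. The script was tested on simulated counts.

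Genes named with values were those past the DEG thresholds, the 3 largest calls per family, direction and day with an average of at least 0 on the log2 CPM scale, and 30 listed members known from lung development or cell identity; FOXK1, FOXN3, SOX6, TBX1, TBX6, TBX15, TBX18, TBX20, TBX21, KLF7, KLF8, HOXA7, HOXB6, HOXD8 and HOXD9 were named after their values were seen. The members and all gene lists were chosen with earlier results of these data known. Some genes are not reported here. No test over a list was run. Same-numbered samples deviated together on day 3 (correlations 0.166, 0.131 and 0.199), so the block is given there; on day 7 the correlations were 0.174, 0.109 and 0.0695, and day 5 has only 2 pairs. What the numbers stand for is not given in the sources used here. Alternatives were DESeq2 1.42.0, its size factors, other filters, 1 entry per locus, the block, only the groups compared, a threshold of 0.01 and leaving out each sample; the second entry of HOXA5, HOXB5, KLF13 and TBX3 and the count over members with a locus of their own were added after seeing the data, as were the alternatives for single genes in the difference between days.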

Additional observations from a re-analysis of the deposited data

Results flagged for a closer look

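For 28 genes the log2FC of hyperoxia over normoxia differed between days 7 and 3 by edgeR's test of the difference itself, and 23 of them are given here as the day 7 value minus the day 3 value. Among the mesenchymal and endothelial factors the difference was -1.58 for TBX5, -1.31 for TBX4, -1.19 for TBX2, -1.31 for FOXF1, -1.24 for FOXF2 and -1.14 for SOX13. It was -0.78 for HOXB2 and HOXB3, which are 1 measurement. The forkhead genes FOXO4, FOXN3, FOXA2 and FOXP1 had differences of -1.37, -0.95, -0.75 and -0.65. GLIS1 had -2.77, GATA3 -1.84, KLF15 -1.56, SOX5 -1.04 and KLF3 -0.67.

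The 6 genes with a higher log2FC on day 7 were HOXD1 at 3.67, SOX11 at 2.31, GATA4 at 1.43, KLF10 at 1.05, KLF5 at 0.82 and FOXK2 at 0.66. The calls of 10 of the genes given did not hold in every fit that left out 1 sample. HOXD1 (3.42, adjusted p = 0.051, without NT7 replicate 3), FOXK2 (0.58, adjusted p = 0.0503, without HT7 replicate 3) and KLF15 (-1.19, adjusted p = 0.0523, without NT7 replicate 2) lost theirs in 1 fit each. HOXB2 and HOXB3, GLIS1, GATA4, SOX5, KLF10 and KLF5 lost theirs in several, with the adjusted p up to 0.0659, 0.0673, 0.0656, 0.0736, 0.0855 and 0.102.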

How the results depend on the processing

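On day 3 the count of 2 genes called became 7 with DESeq2 (FOXF1, HOXB5, KLF15, SOX17 and TBX2 in addition, KLF15 higher), 13 with only the groups compared, 1 at an adjusted p under 0.01 and 0 with the replicate block, and fits without 1 of the samples gave 1 to 3. On day 5 the 30 calls became 33 with DESeq2 (FOXJ3, KLF6 and TBX3 in addition), 22 with only the groups compared and 22 at an adjusted p under 0.01, ranged from 18 (without HT5 replicate 2) to 30 without 1 sample, and were 24 with the replicate block, where FOXK1, FOXK2, KLF1, KLF3, KLF5, SOX11 and TBX21 were lost and KLF7 was gained. On day 7 the 39 calls became 35 with only the groups compared and 33 at an adjusted p under 0.01, ranged from 37 to 42 without 1 sample and remained 39 in number with the block, which lost GLIS3 and gained KLF4. The 28 differences between days 7 and 3 became 16 at an adjusted p under 0.01, ranged from 21 to 32 without 1 sample and were 26 with the block, which lost GATA4 and KLF5. The change between NT7 and NT3 stayed at 0 calls in every fit. Among members with a locus of their own, 2, 22 and 30 were called on days 3, 5 and 7, when 1.03%, 31.3% and 47.4% of all genes were. With each locus counted once, 3.23%, 40.3% and 54.8% of the 62 loci were called, against 1.01%, 31% and 47.2% of all loci tested. With the second entry of HOXA5, HOXB5, KLF13 and TBX3 in place of the first, 2, 30 and 38 genes were called.

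Of 2616 alternative values for single genes, 2476 kept their call or lack of one, 98 lost a call, 42 gained one and 0 of the called values changed sign; a prior count of 2, which alters the fold and not the p, is not among them. KLF1, KLF3 and FOXK1 on day 5 each lost their call without 4 of the 5 samples in turn. Another scaling moved the median of all genes by at most 0.0142 in size. The cause of these differences was not tested. Lone samples left in HT5 were assumed to vary like the other groups. Low counts (HOXD1, SOX10, TBX15, TBX21) limit precision.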

Other observations

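The remaining marker lists were read as context for the lung samples. Of 6 alveolar type 1 markers, 4 were called lower on day 7, with a summed level of 6760 to 7610 CPM in NT7 and 1980 to 2640 CPM in HT7. Of 6 alveolar type 2 markers 2 were called lower and 1 higher, and of 8 macrophage markers 1 lower and 2 higher, with a macrophage sum of 1130 to 1350 CPM in NT7 and 1860 to 2430 CPM in HT7. Of 6 neutrophil markers 2 were called higher and of 5 skeletal muscle markers 1 lower. Of 8 markers of dividing cells, 5 were called lower on day 5 (459 to 548 CPM in NT5 and 93.5 to 275 CPM in HT5) and 0 on day 7 by edgeR, 0 of them at an unadjusted p under 0.05. Of 2 known KLF2 target genes in endothelium, NOS3 was called lower on day 7, with a log2FC of -1.49 (adjusted p = 0.00541), and S1PR1 was at 0.29 (adjusted p = 0.29). KLF2 itself was not among the 71 genes.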
